A study of Mus musculus with 7 samples.

Results

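The genes described here are 9 genes of the MHC class I presentation pathway, chosen by their symbols among the 32286 features of the count tables. They are H2-K1, H2-D1, H2-Q7 and H2-T23, which encode class I heavy chains, B2m, Tap1, Tap2, Tapbp and Nlrc5. Class I molecules sit on nearly all nucleated cells and show short peptides from inside the cell to CD8 T cells and NK cells. A heavy chain folds with β2-microglobulin (B2m) in the endoplasmic reticulum. Tapasin (Tapbp) holds this pair near the transporter TAP (Tap1 and Tap2), which pumps peptides in. Once loaded with a peptide, the class I molecule moves to the surface. NLRC5 is the transactivator of the class I promoters, where it works with the RFX, CREB/ATF and NF-Y factors, and interferons raise most genes of the pathway. Immature thymocytes are known for low surface class I, which increases as T cells mature.

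The genes were followed in mouse thymocytes of 7 single-cell libraries (10x Genomics 3' v3), 1 for each sorted group. The 5 WT libraries came from pooled thymi of C57BL/6 mice of both sexes, aged 6 to 8 weeks and depleted of CD4 and CD8 cells with beads. They held DN3a cells (CD4 and CD8 double-negative cells before selection on a T cell receptor), DN3b γδ− and DN4 γδ− cells on the αβ path, and DN3b γδ+ and DN4 γδ+ cells on the γδ path. The γδ− cells of DN3b and DN4 were gated as positive for CD71, the transferrin receptor, which dividing cells carry, and the γδ+ cells were gated as CD24+. The other 2 libraries, DN3 γδ− and DN3 γδint (an intermediate level of surface γδ TCR), came from mice of genotype Lat-/-TCRd-H2BEGFP. They lack the TCR signalling adaptor LAT in all cells and carry a green fluorescent reporter driven by the gene of the TCRδ chain. Bead depletion is given for the WT samples only, and the age and sex of the Lat-KO mice are not given in the sources used here. Every library also held 500 sorted splenic B cells, gated for MHC class II among other markers, which serve here as mature cells processed in the same tube. There was 1 library per group, so no difference between groups could be tested, and the 95% intervals given below (exact Poisson for levels, exact conditional binomial for ratios, Clopper-Pearson for shares) cover counting error only.

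Thymocyte barcodes were those that passed the quality filter and had at most 1 UMI of the B cell genes Cd79a, Cd79b and Ms4a1. Where values of all 7 libraries are listed without names, they run from WT DN3a through the αβ path (DN3b γδ−, then DN4 γδ−) and the γδ path (DN3b γδ+, then DN4 γδ+) to the Lat-KO pair, with γδ− before γδint. In this order there were 6818, 18515, 12942, 12361, 8703, 6468 and 5274 thymocyte barcodes, and 118 to 259 barcodes per library passed as spiked B cells. Median UMIs per thymocyte barcode were 15392 to 18506 in WT DN3b γδ−, WT DN4 γδ− and WT DN3b γδ+ and 5737 to 7275 in the other 4 libraries. Lat, the deleted gene, stood at 357 to 648 counts per 1000000 UMIs (CPM) in the WT thymocytes and at 4.83 (γδ−) and 0.899 CPM (γδint) in those of the Lat-KO mice. The summed level of 8 T cell markers in thymocytes was 2437 to 11455 CPM, and that of 8 B cell markers was 29.5 to 78.2 CPM against 16511 to 36122 CPM in the B cells. Those B cell markers include Cd79a, Cd79b and Ms4a1, which define both classes of barcodes, so part of this gap follows from the rule. Markers of γδ T cells (Trdc, Sox13, Maf and Blk) summed to 1151 and 2408 CPM in the WT γδ+ libraries of DN3b and DN4, to 216 to 343 CPM in the other WT libraries, and to 58.3 (γδ−) and 65.9 CPM (γδint) in the Lat-KO pair, beside 130 to 373 CPM in the B cells. The edited Trdc of the reporter mice is a feature of its own in the tables (30.5 and 44.2 CPM in the Lat-KO pair), and with it the sums of that pair were 88.7 and 110 CPM. Reads that match both forms of Trdc may have been dropped, which was not tested, so this sum is not compared between the genotypes. Markers of dendritic cells summed to 0.329 CPM or less, those of NK cells, which the sort of the WT cells left out by a surface marker, to 17 CPM in WT DN4 γδ+ and to 0.317 CPM or less elsewhere, and those of myeloid cells to 3.58 to 29.9 CPM in WT and to 50.7 and 40.6 CPM in the Lat-KO libraries. Globin genes summed to 170 CPM in WT DN4 γδ− and to 35.7 CPM or less elsewhere, and markers of thymic epithelium to 172, 136 and 176 CPM in WT DN3a and the Lat-KO pair and to 26.5 to 48 CPM elsewhere. The part of these other cell types in the class I levels was not tested. Between 18 and 93 barcode sequences occurred in both libraries of a pair, at most 0.713% of the smaller library. Ribosomal-protein genes took 18.2% of the thymocyte UMIs of Lat-KO DN3 γδint, where all others had 28% to 34.1%, and 20% of its B cell UMIs against 30.6% to 37% elsewhere.

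The genes lie on mm10 chromosome 17, apart from B2m on chromosome 2 and Nlrc5 on chromosome 8. In GENCODE vM21, Tapbp spans chr17:33915899-33929292 (plus strand), H2-K1 chr17:33996017-34000347 (minus), Tap1 chr17:34187553-34197225 (plus), Tap2 chr17:34203527-34216321 (plus), H2-D1 chr17:35262730-35267499 (plus), H2-Q7 chr17:35439155-35443773 (plus) and H2-T23 chr17:36029773-36032855 (minus). B2m spans chr2:122147686-122153083 (plus) and Nlrc5 chr8:94434356-94527272 (plus). All 9 are annotated as protein-coding. Of the 50-base words in the last 400 bases of their coding transcripts, 10.2% in H2-K1, 5.7% in H2-T23, 4.65% in H2-D1 and 0.513% in H2-Q7 also occur in transcripts of another H2 gene, and none do in B2m, Tap1, Tap2, Tapbp and Nlrc5. Reads from those stretches of the heavy chain genes could have been counted for a related gene or dropped.

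RefSeq promoters (GRCm38.p6, 250 bases before to 50 after the start) were on hand for 7 of the 9 genes, that is all but Tap2 and Nlrc5. The first entry is used for H2-K1, which has 2. Those of H2-K1, H2-Q7 and B2m are shown because class I genes are known to share promoter elements, and that of H2-T23 because H2-T23 took a course of its own over the libraries. Capitals mark motifs on either strand. TGACG is the core of the X2 box that CREB/ATF factors bind. ATTGG is the reverse of CCAAT, the core of the Y box that NF-Y binds. GAANNGAAA is a form of the element that interferon regulatory factors bind.
H2-K1, chr17:34000298-34000597, minus strand: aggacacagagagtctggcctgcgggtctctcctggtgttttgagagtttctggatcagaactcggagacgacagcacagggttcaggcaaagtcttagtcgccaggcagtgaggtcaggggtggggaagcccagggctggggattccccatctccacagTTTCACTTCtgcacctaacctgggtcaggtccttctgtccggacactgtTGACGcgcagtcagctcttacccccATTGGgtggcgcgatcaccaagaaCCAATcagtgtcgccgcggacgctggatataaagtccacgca
H2-Q7, chr17:35438905-35439204, plus strand: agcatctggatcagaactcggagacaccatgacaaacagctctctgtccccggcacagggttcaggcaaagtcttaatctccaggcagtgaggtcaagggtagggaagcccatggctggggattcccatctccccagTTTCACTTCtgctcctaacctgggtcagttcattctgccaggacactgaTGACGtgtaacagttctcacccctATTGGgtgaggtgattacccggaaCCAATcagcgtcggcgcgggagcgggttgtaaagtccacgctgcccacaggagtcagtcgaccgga
B2m, chr2:122147437-122147736, plus strand: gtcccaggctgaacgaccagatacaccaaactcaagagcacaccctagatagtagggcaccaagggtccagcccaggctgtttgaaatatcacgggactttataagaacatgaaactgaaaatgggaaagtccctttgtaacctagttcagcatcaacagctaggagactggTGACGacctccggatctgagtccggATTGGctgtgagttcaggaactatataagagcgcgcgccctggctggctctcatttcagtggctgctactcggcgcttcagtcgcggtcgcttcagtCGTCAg
H2-T23, chr17:36032652-36032951, minus strand: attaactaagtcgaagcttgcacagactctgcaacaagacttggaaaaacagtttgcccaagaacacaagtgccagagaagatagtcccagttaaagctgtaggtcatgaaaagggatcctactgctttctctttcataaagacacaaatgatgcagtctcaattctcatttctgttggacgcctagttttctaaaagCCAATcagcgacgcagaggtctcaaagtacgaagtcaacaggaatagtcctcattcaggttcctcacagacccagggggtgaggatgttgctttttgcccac
In H2-K1, H2-D1, H2-Q7 and B2m, TGACG was followed by ATTGG after 19 or 20 bases, a spacing that was chosen after these 4 had been seen and that 43 of all 32851 promoters hold (0.131%). TGACG alone is in 20.8% of all promoters, ATTGG in 37.4% and GAANNGAAA in 7.52%. The last was found in H2-K1, H2-D1 and H2-Q7. H2-T23 held ATTGG but neither of the other motifs in this window, and Tap1 held TGACG and ATTGG without the short spacing. A match of letters is a description and not a binding site.

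Levels of the 2 classical heavy chains, H2-K1 and H2-D1, were lowest on the αβ path and highest in the Lat-KO libraries. H2-K1 had a level of 409 CPM before selection (WT DN3a). The γδ− cells of DN3b and DN4 had 178 and 109 CPM, the γδ+ cells 290 and 512 CPM, and the cells without LAT 1052 (γδ−) and 1056 CPM (γδint). Only the intervals of the Lat-KO pair overlapped (1043 to 1061 and 1046 to 1066 CPM), and the highest level was 9.72 times the lowest. H2-D1, in the same order, stood at 394.5 CPM in WT DN3a, then at 164, 106, 346, 578, 845 and 1093 CPM. Its order of libraries was that of H2-K1, and no interval overlapped that of the next library.

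H2-Q7, a nonclassical heavy chain gene of the Qa-2 family, spread widest over the 7 libraries, while H2-T23 (11.1-fold) and Nlrc5 (11.7-fold) spread wider within WT. The H2-Q7 levels in the same order were 82, 32.4, 14.3, 77.8, 126, 294 and 429 CPM, a 30-fold range over the 7 libraries and an 8.8-fold range within WT. H2-T23 encodes Qa-1, the nonclassical class I molecule that presents signal peptides of other class I chains to NK receptors. It took another course, with 60.8, 11.6, 18.2, 31.9, 129, 49.8 and 65.3 CPM. H2-T23 was the only member with its highest level in WT DN4 γδ+, and its intervals in WT DN3a and Lat-KO DN3 γδint overlapped (58.7 to 62.9 and 62.7 to 67.9 CPM). B2m, the shared light chain, stood at 1268, 359, 338, 595, 1200, 1727 and 950 CPM. WT DN3a and WT DN4 γδ+ were close on it, without overlap of their intervals (1258 to 1277 and 1192 to 1208 CPM).

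Of the transporter genes, Tap1 had the narrowest range within WT, 2.35-fold, with 43.2, 34, 22, 31.6, 51.6, 109 and 132 CPM. Tap2, at 183, 68.4, 98.1, 63.9, 88.7, 270 and 320 CPM, was the only member with its lowest level in WT DN3b γδ+. Tap2 was also the only member that was not higher in WT DN4 γδ+ than in WT DN4 γδ−. Tapbp stood at 76.6, 28.6, 19.8, 32.9, 72.4, 113 and 88.7 CPM, and only its intervals in WT DN3a and WT DN4 γδ+ overlapped. Nlrc5 was sparse, with 216 to 725 UMIs per library, which gave 5.17, 1.45, 0.887, 2.19, 10.4, 13.2 and 10.9 CPM and an 11.7-fold range within WT. Its intervals in WT DN4 γδ+ and Lat-KO DN3 γδint overlapped (9.64 to 11.2 and 9.84 to 12 CPM).

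Over the 9 genes, WT DN4 γδ− was the lowest of the 7 libraries for 7 (the exceptions were H2-T23 and Tap2), and a Lat-KO library was the highest for 8 (the exception was H2-T23). Summed over the members, the levels were 2522, 877, 727, 1472, 2767, 4473 and 4145 CPM.

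**Figure D1:**
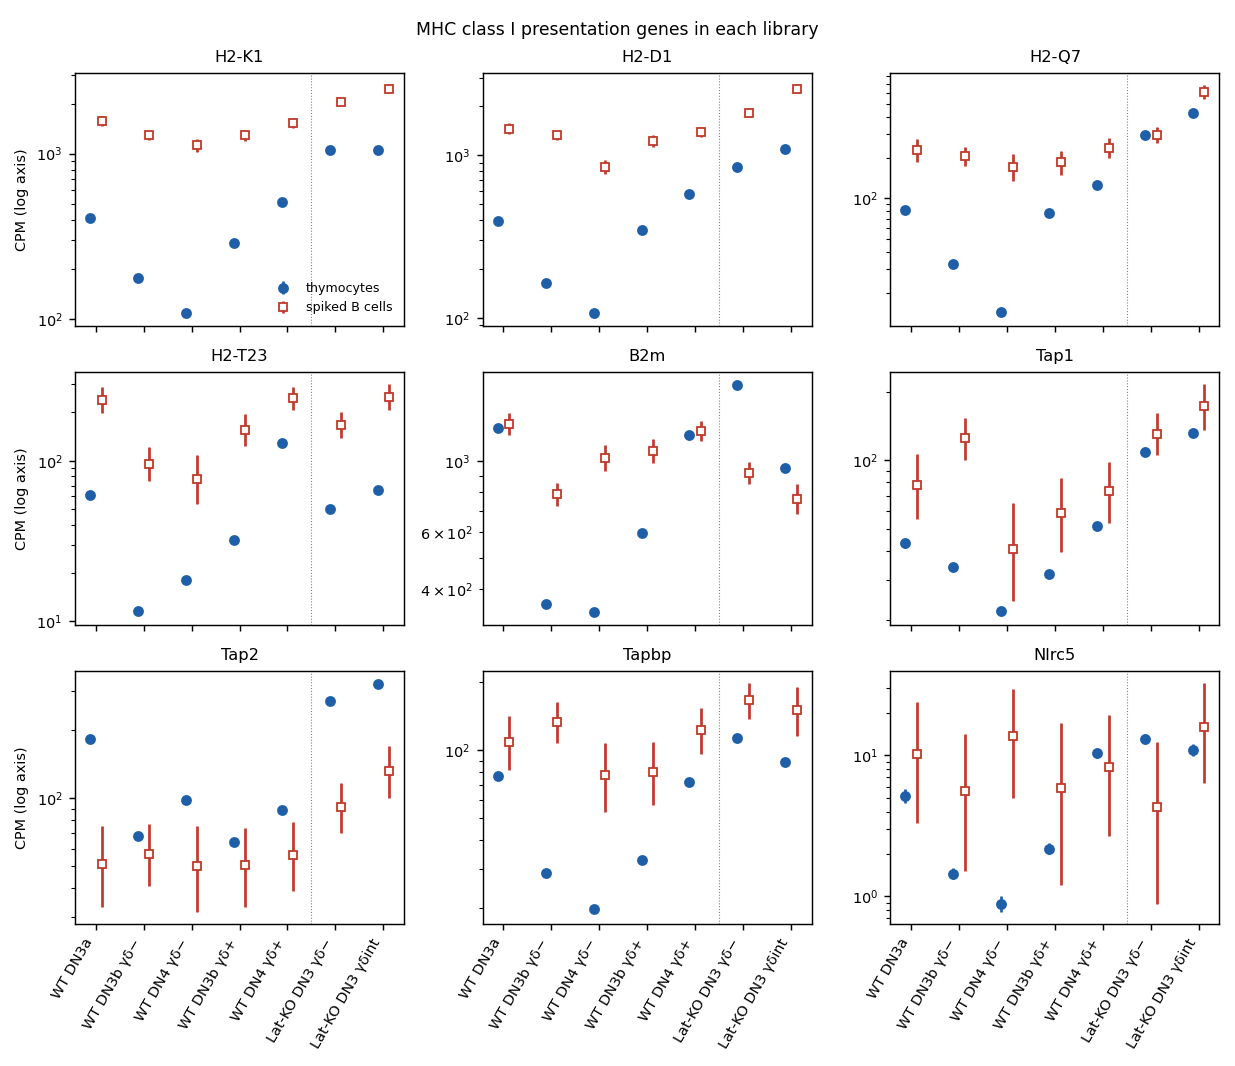
CPM (log axis) of each class I gene in the thymocytes (filled circles) and in the spiked B cells (open squares) of the 7 libraries, 1 library per group, with exact Poisson 95% intervals; the dotted line parts WT from Lat-KO. For H2-K1 and H2-D1 the thymocytes dip on the αβ path and stay below the B cells in each library, while for Tap2 the points lie above those of the B cells in each library.

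The spiked B cells give each level a mature reference from the same tube. H2-K1 in thymocytes was 0.26, 0.138, 0.0964, 0.224, 0.335, 0.511 and 0.43 times the B cell level of the same library. H2-K1 was thus below the B cells in every library. H2-D1 lay between 0.123 times (WT DN3b γδ−) and 0.465 times (Lat-KO DN3 γδ−), and H2-T23 between 0.121 times (WT DN3b γδ−) and 0.523 times (WT DN4 γδ+). H2-Q7 reached the B cell level in Lat-KO DN3 γδ−, at 294 CPM in both cell types (ratio 1, log2 interval -0.20 to 0.20). B2m was at the B cell level in WT DN3a (0.97 times, log2 interval -0.16 to 0.07) and in WT DN4 γδ+ (0.968 times, -0.15 to 0.06). It was below it in the 3 other WT libraries (0.331 to 0.555 times) and above it in Lat-KO DN3 γδ− (1.88 times) and Lat-KO DN3 γδint (1.24 times). Tap2 was the only member with a ratio above 1 in all 7 libraries, from 1.2 times in WT DN3b γδ− to 3.57 times in WT DN3a (log2 interval 1.27 to 2.47). Its log2 intervals in WT DN3b γδ− (-0.17 to 0.75) and WT DN3b γδ+ (-0.22 to 0.95) included 0. Nlrc5 rested on 3 to 7 UMIs in the B cells of a library and is not read against them.

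The B cell levels were themselves not constant. H2-K1 stood at 1127 to 1571 CPM in the B cells of the WT libraries and at 2059 CPM (1954 to 2168) and 2456 CPM (2312 to 2607) in those of the Lat-KO libraries, and H2-D1 at 849 to 1457 CPM against 1819 and 2561 CPM. B2m was not higher there, with 787 to 1307 CPM in the WT libraries and 918 and 763 CPM in the Lat-KO libraries. Thymocyte RNA was present in the B cell barcodes: the summed Cd3d, Cd3e and Cd3g level in the B cells was 3.12% of the thymocyte level in Lat-KO DN3 γδ− and 14.9% to 21.7% of it in WT DN3b γδ−, WT DN4 γδ− and WT DN3b γδ+. The rule for B cells left out barcodes with many UMIs of T cell genes beside those of B cell genes. These shares are thus limited by the rule and may understate the thymocyte RNA mixed with B cells. B cell RNA in the thymocyte barcodes was low. Cd74, a B cell gene, was at 4.43 to 15.9 CPM in the thymocytes, 0.0283% to 0.176% of its B cell level, and subtracting that share of the B cell profile changed no count of members given below. No cell type in these libraries lacks class I genes, so a share of positive cells due to free RNA could not be measured for them directly.

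At the step from WT DN3a to WT DN3b γδ−, where β-selected cells start to divide, 8 of the 9 genes were at least 2-fold lower in CPM (the exception was Tap1) and none was 2-fold higher. The background for this comparison is 16.3% of 7894 genes at least 2-fold lower and 10.4% at least 2-fold higher. Genes enter the background when they reach 10 CPM in 1 of the 2 libraries, which all members but Nlrc5 did, so 7 of 8 members are to be read against it. The comparisons share libraries and are not independent of each other. H2-T23 was lower by 2.39 on the log2 scale (5.25-fold), B2m had a log2 ratio of -1.82 (-1.83 to -1.81), Tap2 and Tapbp of -1.42 each, H2-Q7 of -1.34, H2-D1 of -1.27 and H2-K1 of -1.20 (-1.22 to -1.17). Tap1 stood apart at -0.35 (-0.41 to -0.28), and Nlrc5 was at -1.84 on 278 and 490 UMIs. The median over the 8 members tested was -1.38, against -0.09 over all genes tested. Scaling by TMM, which centres most genes on 0, moved every log2 ratio by 0.36 and left 5 members at least 2-fold lower, with H2-K1 at -0.84 and Tap1 at 0.01. In the other comparisons it moved them by -0.34 to 0.32. The B cells of this pair differed as well, with log2 ratios of -1.33 (-1.78 to -0.89) for H2-T23, -0.73 (-0.90 to -0.57) for B2m and 0.68 (0.12 to 1.27) for Tap1. With the B cell ratios taken out H2-T23 was at -1.06, B2m at -1.09, Tap1 at -1.03 and H2-K1 at -0.92.

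These are changes in the share of a cell's RNA. Thymocyte barcodes of WT DN3b γδ− held more UMIs than those of WT DN3a, at a log2 ratio of 1.21, and per barcode H2-K1 and H2-D1 hardly parted. The mean was 3.22 UMIs of H2-K1 per barcode in WT DN3a and 3.26 in WT DN3b γδ−, and 3.11 and 2.99 UMIs of H2-D1. Only H2-T23 was at least 2-fold lower per barcode (0.479 and 0.212 UMIs), B2m was at 9.99 and 6.56 UMIs, and Tap1 was higher in WT DN3b γδ−, at 0.341 and 0.621 UMIs. UMIs per barcode move with the sequencing depth as well as with RNA content. The B cells of the same pair of libraries had a log2 ratio of total UMIs per barcode of -0.52.

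From WT DN3b γδ− to WT DN4 γδ− 1 member, H2-Q7, was at least 2-fold lower (32.4 and 14.3 CPM, log2 ratio -1.18) and none was 2-fold higher, beside 0.77% of 7016 genes lower and 0.542% higher. H2-K1 had a log2 ratio of -0.72 (-0.74 to -0.69) and H2-D1 of -0.62. B2m hardly moved, at -0.08, while H2-T23 (0.65) and Tap2 (0.52) were higher in WT DN4 γδ−. Total UMIs per barcode were alike here (log2 ratio 0.04), and per barcode the values kept these signs. With the B cell ratios taken out H2-Q7 was at -0.92, H2-D1 at 0.02 and Tap1, with a B cell ratio of -1.61 (-2.42 to -0.87), at 0.98. In the few barcodes with at most 1 UMI of 23 cycling genes per 3000 UMIs (162 and 133), called cycling-low here, the sign turned for all members but H2-T23, which was at 1.56. H2-Q7 was then higher in WT DN4 γδ−, at a log2 ratio of 1.83, as were H2-K1 (0.93) and H2-D1 (0.67). Tap1 (0.12) rested there on 46 and 45 UMIs, Tapbp (0.17) on 58 and 59, Tap2 (-0.14) on 143 and 117 and Nlrc5 (0.56) on 6 and 8. Without an interval these small ratios are not read as a change of direction.

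On the γδ path, WT DN3b γδ+ cells had levels of H2-Q7 and H2-D1 near those of WT DN3a. Against WT DN3a, 4 of the 9 genes were at least 2-fold lower (B2m, Tap2, Tapbp and, under 10 CPM, Nlrc5), none was 2-fold higher, and the background was 15.3% of 7944 genes lower and 10.8% higher. With TMM 1 was left, Tap2 (-1.20). Tap2 had a log2 ratio of -1.52, Tapbp of -1.22 and B2m of -1.09, whereas H2-Q7 was at -0.08 (-0.12 to -0.03), H2-D1 at -0.19 and H2-K1 at -0.50. H2-T23, the other heavy chain gene, was at -0.93 (-0.99 to -0.87), and at 0.59 among cycling-low barcodes. With the B cell ratios taken out H2-T23 was at -0.31, B2m at -0.81 and Tapbp at -0.78, all under 2-fold, and Tap2 stayed at -1.51. Per barcode 3 heavy chains were higher than in WT DN3a, with 4.6 against 3.22 UMIs of H2-K1, 5.49 against 3.11 of H2-D1 and 1.23 against 0.646 of H2-Q7, and H2-T23 was nearly level (0.505 against 0.479).

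The direct comparison of the selected cells at DN3b, γδ+ over γδ−, has libraries of similar median depth (15392 and 16948 UMIs) and summed level of the cycling genes (5205 and 5264 CPM). Here 3 of the 9 genes were at least 2-fold higher in WT DN3b γδ+, beside 5.14% of 7276 genes: H2-T23 (log2 ratio 1.46), H2-Q7 (1.26) and H2-D1 (1.08). H2-K1 had a log2 ratio of 0.70 and B2m of 0.73. Tap1 and Tap2 were both at -0.10. The B cells of this pair had a Tap1 ratio of -1.09 (-1.74 to -0.48), and with the B cell ratios taken out Tap1 was at 0.99 and Tap2 at 0.06. H2-T23, with a B cell ratio of 0.71 (0.23 to 1.19), was then at 0.75 and under 2-fold, B2m at 0.28, and H2-D1 (1.20) and H2-Q7 (1.42) stayed past 2-fold. By CPM none was at least 2-fold lower (background 2.28%). Set on the depth of the B cells of each library, which differed by 0.50 on the log2 scale, none of the 9 was 2-fold higher.

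From WT DN3b γδ+ to WT DN4 γδ+ all 9 genes had higher CPM, as did 4262 of all 7766 genes tested. Of the 9, 4 were at least 2-fold higher, beside 11.8% of 7766 genes. Nlrc5 differed most, with 2.19 and 10.4 CPM (log2 ratio 2.25, 2.07 to 2.42), then H2-T23 (2.01), Tapbp (1.14) and B2m (1.01), of which Tapbp and B2m were under 2-fold with TMM and with the B cell ratios taken out (0.52 and 0.80), where H2-T23 was at 1.36. H2-K1 had a log2 ratio of 0.82, H2-D1 of 0.74 and H2-Q7 of 0.69. No member was 2-fold lower (background 6.53%). Barcodes of WT DN4 γδ+ held fewer UMIs (log2 ratio -0.98), and per barcode H2-K1 was at 4.6 and 4.11 UMIs, B2m at 9.43 and 9.63 and Tap2 at 1.01 and 0.712. H2-T23, at 0.505 and 1.03 UMIs, and Nlrc5, at 0.0346 and 0.0833, were higher on both scales.

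In WT DN4 γδ+ 8 of the 9 genes were at least 2-fold higher than in WT DN4 γδ−, where the background was 19.7% of 7802 genes higher and 8.16% lower. Nlrc5 was 11.7 times higher (0.887 and 10.4 CPM), H2-Q7 8.8 times, H2-T23 7.08 times, H2-D1 5.43 times, H2-K1 4.71 times, Tapbp 3.65 times, B2m 3.55 times and Tap1 2.35 times. Tap2 was the exception, at 98.1 CPM in WT DN4 γδ− and 88.7 CPM in WT DN4 γδ+ (log2 ratio -0.14). The B cells of this pair had log2 ratios of 1.67 (1.12 to 2.25) for H2-T23, 0.71 for H2-D1 and 0.84 (0.01 to 1.71) for Tap1. With the B cell ratios taken out H2-T23 was at 1.16, H2-D1 at 1.73, H2-Q7 at 2.67 and H2-K1 at 1.79, and Tap1 was under 2-fold (0.40). The median log2 ratio of the members was 2.24, against 0.18 over all genes tested. Per barcode, where the total was 1.23 lower on the log2 scale, H2-K1 remained higher (2.04 and 4.11 UMIs), as did H2-D1 (2 and 4.64), H2-Q7 (0.269 and 1.01), H2-T23 (0.341 and 1.03) and Nlrc5 (0.0167 and 0.0833). Tap1 was equal on this scale (0.413 and 0.414 UMIs), and Tap2 was lower (1.84 and 0.712).

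**Figure D2:**
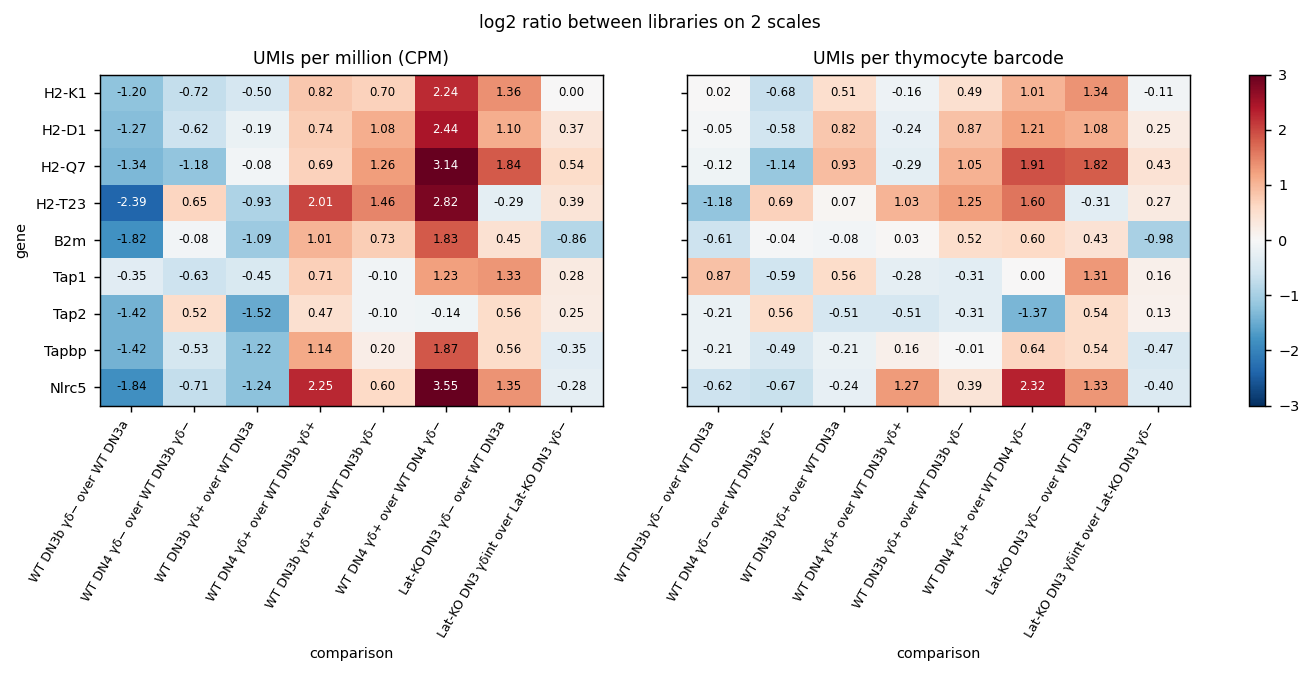
log2 ratios of the 9 genes in the 8 comparisons of libraries, on the scale of CPM (left) and of UMIs per thymocyte barcode (right); red is higher in the library named first. The fall at the step to WT DN3b γδ− on the left is absent on the right for H2-K1 (0.02), while the Lat-KO DN3 γδ− column is nearly the same in both panels.

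The level of cycling genes differed between these libraries along with the class I levels. The 23 genes of the list summed to 838, 5264, 5188, 5205, 2496, 1237 and 3814 CPM in the thymocytes. They summed to 183, 1194, 1477, 1594, 367, 161 and 695 CPM in the spiked B cells. At 3000 UMIs per barcode, 50.3%, 99.1%, 98.9%, 98.6%, 42.7%, 51.4% and 84.3% of the thymocytes had more than 1 UMI of the list. So did 9.78%, 72.3%, 88.5%, 91.4%, 34.8%, 6.11% and 42.6% of the B cells, so having more than 1 UMI does not mark a barcode as a dividing cell. In WT DN4 γδ+ the share in thymocytes lay within the interval of the B cells (26.1 to 44.2). Within WT DN4 γδ− the 133 cycling-low barcodes held 446 CPM of H2-K1 against 107 in the others, 111 against 13.8 CPM of H2-Q7 and 91.9 against 17.7 CPM of H2-T23. In WT DN3b γδ−, with 162 such barcodes, H2-K1 was at 233 against 178 CPM, H2-Q7 at 31.2 against 32.5, H2-T23 at 31.2 against 11.5 and B2m at 630 against 358 CPM. In WT DN3b γδ+ cycling-low and other barcodes had 388 and 289 CPM of H2-K1, 75.2 and 77.6 of H2-Q7 and 103 and 31.3 of H2-T23. Within WT DN3a, where both classes are well filled, H2-K1 was at 422 CPM in cycling-low and 397 CPM in other barcodes (log2 ratio of the others over cycling-low -0.09, -0.13 to -0.05). In WT DN4 γδ+ it was at 571 and 452 CPM, and H2-T23 at 167 and 98.9 CPM. In Lat-KO DN3 γδint H2-K1 was at 1079 and 1045 CPM.

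Between cycling-low barcodes alone, the comparison of WT DN4 γδ+ with WT DN4 γδ− had none of the 9 genes at least 2-fold higher, with H2-K1 at a log2 ratio of 0.36, H2-D1 at 0.81, H2-Q7 at 0.28 and H2-T23 at 0.86. The share of all genes past 2-fold was not taken among cycling-low barcodes, so the member counts of this setting have no background. The WT DN4 γδ− side held 45 UMIs of Tap1 and 8 of Nlrc5. B2m was at 0.84, Tap1 at 0.38, Tap2 at -0.25, Tapbp at 0.63 and Nlrc5 at 0.73. At DN3b the ratios between the lineages among cycling-low barcodes, for the 9 genes in the same order, were 0.73, 0.86, 1.27, 1.72, 0.54, 0.12, -0.26, 0.48 and -0.67. H2-Q7 and H2-T23, each on 38 UMIs in WT DN3b γδ−, lay furthest above their DN4 values. H2-D1 and Tap2 were close to theirs, and Nlrc5 rested on 4 UMIs in WT DN3b γδ+ and 6 in WT DN3b γδ−. No interval is given for these ratios, so no split of the members is read from them. From WT DN3a to WT DN3b γδ− 3 genes were still at least 2-fold lower (H2-Q7, H2-T23 and B2m), again without a background for this setting. Whether the few cycling-low barcodes of the γδ− libraries belong to the same population as the others was not tested.

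Lat-KO DN3 γδ− cells, which resemble WT DN3a in depth (medians 6938 and 7275 UMIs), had 5 of the 9 genes at least 2-fold above WT DN3a, beside 2.8% of 8070 genes. H2-Q7 was at 294 against 82 CPM (log2 ratio 1.84, 1.79 to 1.89), H2-K1 at 1052 against 409 CPM (1.36), Nlrc5 at 13.2 against 5.17 CPM (1.35, 1.14 to 1.56), Tap1 at 109 against 43.2 CPM (1.33) and H2-D1 at 845 against 394.5 CPM (1.10). Tap2 and Tapbp had log2 ratios of 0.56 each and B2m of 0.45. H2-T23 was the one member that was lower by CPM, at 49.8 against 60.8 CPM (-0.29, -0.36 to -0.21). None was 2-fold lower (background 0.62%). The median log2 ratio was 1.10 over the members and 0.24 over all genes tested. Per barcode the count was again 5, and with TMM H2-D1 was at 0.93, under 2-fold. The B cells of the same libraries moved the same way for H2-K1 (log2 ratio 0.39, 0.26 to 0.52), H2-D1 (0.32), H2-Q7 (0.37), Tap1 (0.75), Tap2 (0.83) and Tapbp (0.61). Their H2-T23 (-0.52, -0.91 to -0.14) and B2m (-0.51) ratios were below 0. With the B cell ratio taken out H2-Q7 remained 2-fold higher (1.47), with H2-K1 at 0.97, B2m at 0.96, H2-T23 at 0.23 and Tap2 at -0.28. Nlrc5, on 3 and 5 UMIs in the B cells, is left out of this reading. Genotype, reporter, sorting gate, bead depletion and library cannot be told apart in this comparison.

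Between the Lat-KO libraries no member differed 2-fold (background 4.54% of 8347 genes higher and 3.53% lower in DN3 γδint). By CPM H2-K1 was level (log2 ratio 0.00, -0.01 to 0.02). H2-Q7 (0.54), H2-T23 (0.39) and H2-D1 (0.37) were higher in DN3 γδint, with B cell ratios of 1.06, 0.59 and 0.49. Tap1 (0.28) and Tap2 (0.25) were higher as well, and Tapbp (-0.35) and Nlrc5 (-0.28) were lower. The median over all genes tested was 0.20. With the B cell ratios taken out H2-K1 was at -0.25, H2-Q7 at -0.52 and H2-D1 at -0.12. With TMM they were at -0.24, 0.30 and 0.12. B2m was lower, at 950 against 1727 CPM (-0.86), and its B cell ratio was -0.27 (-0.46 to -0.07). B2m has the shortest transcript of the members (860 bases; the others have 1472 or more), and genes with transcripts of 700 to 1000 bases had a median log2 ratio between these libraries of -0.19 over 213 genes in thymocytes and -0.11 over 177 genes in B cells, against 0.47 for those of 1000 to 2000 bases in each. What part transcript length has in the B2m value was not tested.

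The share of barcodes with at least 1 UMI of a gene was taken at a fixed 3000 UMIs per barcode, which left 83.6% to 96.7% of the thymocyte barcodes. H2-K1 was then seen in 63.4% (62.2 to 64.6), 40.1%, 26.3%, 55.9%, 64.4%, 90.8% and 90.9% of the thymocyte barcodes and in 92% to 100% of the B cells. WT DN3a and WT DN4 γδ+ were within each other's interval on this measure (63.3 to 65.5), although H2-K1 was higher by CPM in WT DN4 γδ+. Without thinning the shares were 73.7% to 97.7%. B2m was seen in 63.1% (WT DN4 γδ−) to 98.7% (Lat-KO DN3 γδ−) of thymocytes, H2-T23 in 3.52% (WT DN3b γδ−) to 34.8% (WT DN4 γδ+) and Nlrc5 in 0.359% (WT DN4 γδ−) to 4.27% (Lat-KO DN3 γδ−).

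Spread between cells differed as well. The UMIs of H2-K1, H2-D1 and B2m together, per 3000 UMIs, had medians of 6 (10th to 90th percentile 2 to 12), 2 (0 to 5), 1 (0 to 4), 4 (1 to 7), 6 (2 to 16), 11 (5 to 19) and 9 (4 to 17). In the B cells the medians were 8 to 17. WT DN4 γδ+ thus had the median of WT DN3a with a longer upper tail, and the variance over the mean was 4.42 there against 1.66 to 2.74 in the other libraries and 1.51 to 2.04 in the B cells. At least 6 of the 3000 UMIs, the median of WT DN3a, were of the 3 genes in 55.1%, 5.83%, 3.13%, 23.9%, 57.9%, 88.7% and 81% of the thymocytes. No UMI of the 3 genes was found in 22.1% of WT DN4 γδ− barcodes and in 4 of 6254 barcodes (0.064%) of Lat-KO DN3 γδ−.

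**Figure D3:**
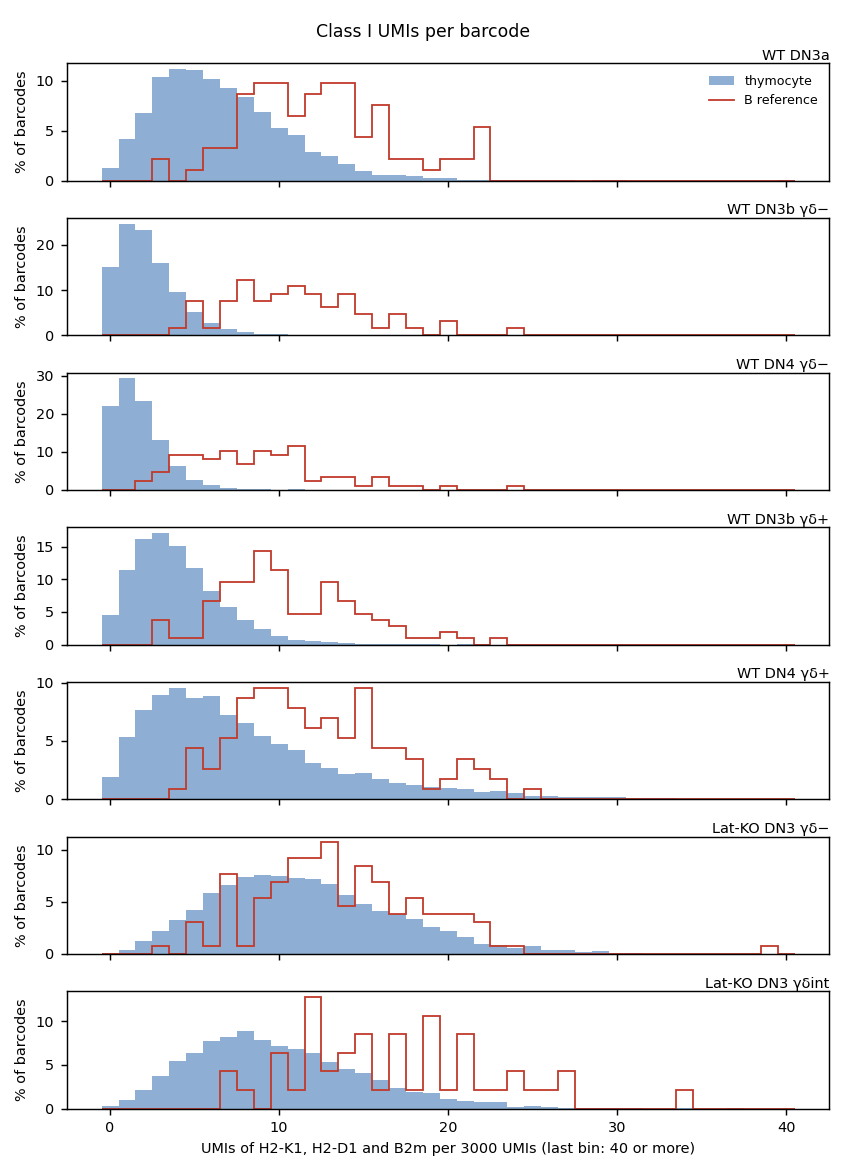
Share of barcodes (y axis, percent) by the number of UMIs of H2-K1, H2-D1 and B2m among 3000 UMIs (x axis), in thymocytes (filled) and in the spiked B cells (outline) of each library. WT DN4 γδ+ has the same median as WT DN3a, 6 UMIs, and reaches further right, to a 90th percentile of 16.

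That tail was followed with genes that mark the states of γδ thymocytes. Barcodes of WT DN4 γδ+ were split by a UMI of each of 11 genes, at 3000 UMIs per barcode, and the class I levels of both parts were compared within this 1 library, as a description with no test. Barcodes with Il2rb, the β chain of the IL-2 and IL-15 receptor (1210 barcodes, 16.6%), held 1078 CPM of H2-K1 against 517 CPM in the others (log2 ratio 1.06, 1.01 to 1.11), 327 against 120 CPM of H2-Q7 (1.45) and 1040 against 584 CPM of H2-D1 (0.83). H2-T23 was at 155 and 148 CPM (0.07, -0.06 to 0.20) and Tap2 at 82.9 and 83.1 CPM. In the 62 barcodes with Ly6c2, a marker of matured T cells, H2-Q7 was at 710 against 149 CPM and H2-K1 at 1790 against 600 CPM. S1pr1, the receptor for exit from the thymus, and Klf2, its activator, went with more of every heavy chain (log2 ratios of 0.51 to 0.81 and 0.30 to 0.70).

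Sox13 and Maf, transcription factors of the IL-17 fate, went the other way. With Sox13 (2822 barcodes) H2-K1 was at 413 against 735 CPM (log2 ratio -0.83), H2-Q7 at -0.97 and H2-D1 at -0.65. With Maf (3010 barcodes) these ratios were -0.49, -0.69 and -0.39. For H2-T23 the interval of the ratio included 0 in both splits (-0.05 and -0.04). Cd24a, which falls as thymocytes mature, went with slightly lower levels of all 4 heavy chains (-0.38 to -0.31), and the 137 barcodes with Zbtb16 had intervals that include 0 for each heavy chain.

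Interferon-stimulated genes parted the members differently. In the 127 barcodes of WT DN4 γδ+ with Ifit3, Nlrc5 was at 49.9 against 12 CPM (log2 ratio 2.05, 1.30 to 2.72), Tapbp at 239 against 76.4 CPM (1.64), Tap1 at 134 against 53.2 CPM (1.33), H2-T23 at 349 against 146 CPM (1.26), H2-K1 at 1312 against 598 CPM (1.13) and H2-Q7 at 241 against 153 CPM (0.66). The order of the members was thus not that of the split by Il2rb, where H2-Q7 and H2-K1 parted most. Split by Isg15, which every library expressed, H2-T23 was higher with it in each of the 7 libraries, at log2 ratios of 0.52, 0.95, 1.12, 0.59, 0.68, 0.70 and 0.59. Tapbp (0.24 to 0.99), Tap1 (0.23 to 0.67), B2m (0.13 to 0.61), H2-D1 (0.06 to 0.81) and Nlrc5 (0.42 to 1.96) were also higher with it in each. The Nlrc5 ratio of 0.42 rested on 8 UMIs with Isg15. H2-Q7 was below 0 in WT DN3b γδ− (-0.09) and WT DN3b γδ+ (-0.12), and Tap2 in WT DN4 γδ+ (-0.11). H2-K1 had ratios of 0.10 to 0.34 in 6 libraries and 1.07 in WT DN4 γδ−. Barcodes of a library are not replicates, and a barcode without a UMI of the splitting gene may still express it.

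**Figure D4:**
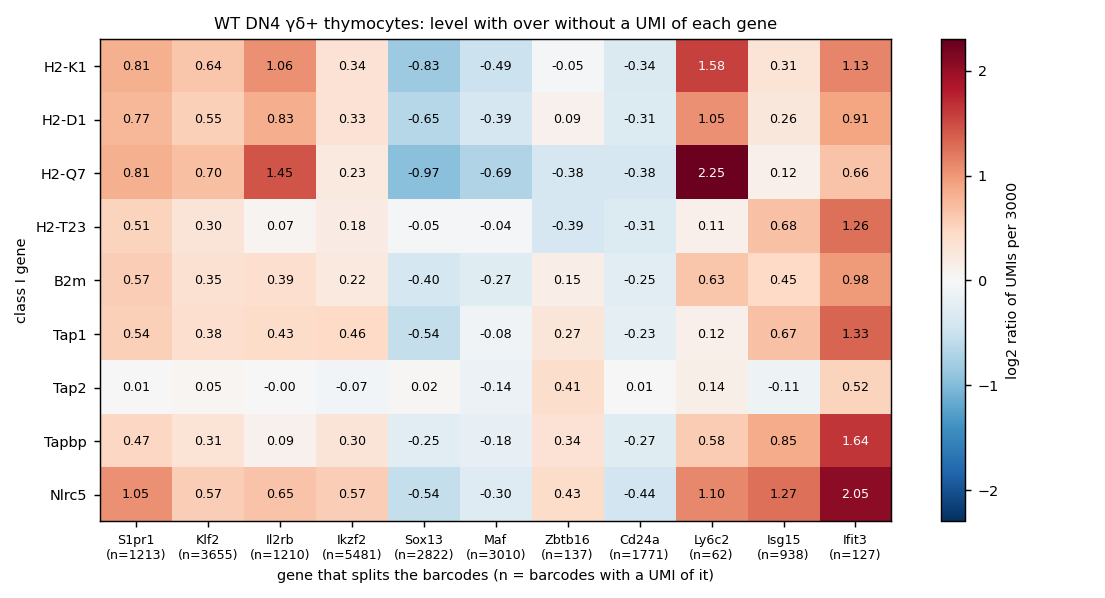
log2 ratio of the level of each class I gene (rows) in WT DN4 γδ+ barcodes with a UMI of the gene on the x axis over those without, all at 3000 UMIs per barcode; n is the number of barcodes with the gene. H2-Q7 and H2-K1 go up with Il2rb and down with Sox13, whereas H2-T23 is at 0.07 and -0.05 and goes up with Ifit3 (1.26).

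Of 11 genes that make and load the peptides, few passed 2-fold where the members did. From WT DN3a to WT DN3b γδ− 2 were at least 2-fold lower, a share near the 16.3% of all genes, namely the aminopeptidase Erap1 (39.1 and 17.5 CPM) and the tapasin relative Tapbpl (30.1 and 14.8 CPM), while the chaperones Canx (161 and 261 CPM) and Calr (259 and 411 CPM) were higher. In WT DN3b γδ+ 3 of the 11, chaperones of the endoplasmic reticulum, were at least 2-fold higher than in WT DN3a (all genes 10.8%), with Hspa5 at 614 against 194 CPM in WT DN3a (log2 ratio 1.66), Pdia3 at 469 against 152 CPM (1.62) and Calr at 614 against 259 CPM (1.25). Canx, a chaperone of the same compartment, was at 257 against 161 CPM (0.68). Psmb10 (109 against 213 CPM, -0.97) and Tapbpl (17.4 against 30.1 CPM, -0.79) were lower. Of the 11 genes, 6 had a log2 ratio below 0, and the median of the list was -0.17. Only Tapbpl, 1 of 11, was 2-fold higher in WT DN4 γδ+ than in WT DN4 γδ− (36.3 and 14.7 CPM), beside 19.7% of all genes. No gene of this list was 2-fold apart between Lat-KO DN3 γδ− and WT DN3a.

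Other class I genes, 15 of 18 of which are in the count tables, were mostly low, and 4 to 7 reached 10 CPM in a comparison. From WT DN3a to WT DN3b γδ− 3 of 5 were at least 2-fold lower (all genes 16.3%), namely H2-Q4 (33.2 and 8.13 CPM), H2-M3 (21.6 and 7.6 CPM) and Cd1d1, which presents lipids to NKT cells (41.2 and 11.8 CPM). H2-Q2 went against them and was 2-fold higher, with 0.223 CPM in WT DN3a, 22.9 and 42.9 CPM in the γδ− cells of DN3b and DN4, and 4.07 and 49.6 CPM in the γδ+ cells. In Lat-KO DN3 γδ− H2-Q6 (35.7 against 3.57 CPM), H2-Q4 (93.3 against 33.2 CPM) and H2-T22 (101 against 42.6 CPM), 3 of the 6 tested, were at least 2-fold above WT DN3a (all genes 2.8%). H2-Q6 is a close relative of H2-Q7. Of the 50-base words at the transcript ends of H2-Q7, 0.513% occur in another H2 gene, and whether reads were split between H2-Q6 and H2-Q7 was not tested.

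The regulators of class I transcription and interferon signalling took a similar course in part. Of 22 tested, 7 were at least 2-fold lower in WT DN3b γδ− than in WT DN3a and none was higher, beside 16.3% of all genes lower and 10.4% higher. They included Irf9 (27.6 and 8.41 CPM), Irf1 (65.8 and 25.6 CPM) and Rfx5, a subunit of the RFX complex on class I promoters (14.1 and 4.79 CPM). In WT DN4 γδ+ 13 of 24 were at least 2-fold higher than in WT DN4 γδ− (all genes 19.7%), led by Irf7 (30.7 and 3.24 CPM), Rel (34.8 and 6.6 CPM) and Irf9 (32.4 and 7.21 CPM). Between Lat-KO DN3 γδ− and WT DN3a only Irf7 passed 2-fold, 1 of 23 tested beside 2.8% of all genes (29.6 and 11.3 CPM).

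Of 20 interferon-stimulated genes, 19 are in the tables. In WT DN3b γδ−, 12 of the 15 tested were at least 2-fold below WT DN3a (all genes 16.3%), and in WT DN3b γδ+ 13 of 15 were (all genes 15.3%), with 1 at least 2-fold higher. Zbp1 was at 33.3 and 4.12 CPM and Gbp2 at 24.2 and 3.93 CPM in WT DN3a and WT DN3b γδ−, and Bst2 was at 548 CPM in WT DN3a and 120 CPM in WT DN3b γδ+. At DN4 the γδ+ cells had 12 of 16 at least 2-fold above WT DN3b γδ+ (all genes 11.8%), led by Ifi206 (1.42 and 29.5 CPM) and Ifi27l2a (6.46 and 99.9 CPM). In Lat-KO DN3 γδ− 6 of 18 were at least 2-fold above WT DN3a (all genes 2.8%), among them Oasl2 (41.3 and 11.1 CPM) and Rtp4 (83.1 and 35.1 CPM). In Lat-KO DN3 γδint 2 of 18 were at least 2-fold lower than in Lat-KO DN3 γδ− (all genes 3.53%), Isg15 among them (92.5 and 210 CPM). A log2 ratio below 0 was found for 16 of 18, beside 2608 of all 8347 genes tested.

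Genes of MHC class II presentation stayed low, with a sum of 46 to 124 CPM over 10 genes in thymocytes against 17296 to 39189 CPM in the B cells, which were sorted for class II. H2-Oa (36.8 and 5.12 CPM) and H2-Ob (14.7 and 0.715 CPM), which modulate class II loading, and H2-DMa (38.6 and 14.8 CPM) were at least 2-fold higher in WT DN4 γδ+ than in WT DN4 γδ−, 3 of the 5 tested (all genes 19.7%). H2-Ab1 was at least 2-fold lower (6 and 14.2 CPM, all genes 8.16%), and Cd74 was near level (15.1 and 15.9 CPM).

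The genes whose levels over the 7 libraries were most like the mean log2 level of H2-K1, H2-D1 and B2m were sought among 1873 genes with a range of at least 2 on the log2 scale, members left out. They were Itm2c (Pearson r 0.993), Glmp (0.989), Trafd1 (0.985), Sstr2 (0.983), Borcs6 and Pkp3 (0.981 each), Qsox1, Nfatc2 and Gm50105 (0.979 each) and Foxn3 (0.978). Itm2c ran from 14.4 CPM in WT DN4 γδ− to 94.6 CPM in Lat-KO DN3 γδint, and Foxn3 from 42.9 to 204 CPM. Of the members outside that mean, Tapbp was at 0.972, Nlrc5 at 0.971, H2-Q7 at 0.970, Tap1 at 0.908, H2-T23 at 0.804 and Tap2 at 0.740. These values describe 7 points that share depth, cycling-gene level and genotype.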

How the data were processed

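Each of the 7 libraries was deposited by the authors as a table of UMI counts per gene and barcode, made with Cell Ranger (4.0.0 per the file headers, 5.0.1 per the submitters' processing notes) on mm10 with the edited reporter gene added, and neither scaled nor corrected. Other tools in those notes (R 3.6.3, Seurat 3.1.5) left no trace in the counts. The study's own filter was applied, which drops barcodes under 200 genes or over 15% mitochondrial UMIs. Of the 79076 that passed, 71081 were thymocyte barcodes (at most 1 UMI of 3 B cell genes), 1108 were B cells (at least 10 UMIs of those genes and at most 0.5 times as many of 5 T cell genes), and 6887 were neither. Cd79b itself stood at 8.65 to 49.3 CPM in thymocytes, so the rule also dropped some of them. Doublets of a B and a T cell leave by this rule, and no caller was run. UMIs were summed per gene and library and scaled to CPM. A member was counted as higher or lower at 2-fold, and the background is the share of all genes with at least 10 CPM in 1 of the 2 libraries. A count of 0 would enter a ratio as 3 counts.

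The depth was 37820685 to 338698944 thymocyte UMIs per library, which makes the counting error small beside what a second library could show. Groups came from the sample titles and genotypes, with 1 library each, and no test was run. The 9 genes and the other gene lists were chosen with earlier results of these data known. All members are named with their values. In the other lists at most 5 genes per comparison are named, those with the largest ratios. Canx in WT DN3b γδ+ over WT DN3a is named beyond this rule, beside the other chaperones. The 10 genes most like the members are those with the highest Pearson r of log2(CPM + 1). Ratios, intervals and the 2-fold rule were tested on simulated Poisson counts. These hold counting error only, so the check does not cover spread between cells or libraries. Python 3.11.15 with numpy 2.4.6, scipy 1.17.1, pandas 2.3.3 and matplotlib 3.10.9 was used, and edgeR 4.0.16 in R 4.3.3 gave TMM factors for an alternative scaling. Further alternatives changed the scale, the barcode classes, the level of cycling genes, the B cell reference, the fold and the thinning. GENCODE vM21 supplied positions and transcripts, and RefSeq the promoters. A few genes of the lists are not reported here.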

Additional observations from a re-analysis of the deposited data

How the results depend on the processing

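No paired analysis was possible because each group had 1 library and no test was run. The counts of members at least 2-fold apart moved as follows, and the cause was not tested unless the setting itself gives it. The share of all genes past 2-fold was not taken under these settings. From WT DN3a to WT DN3b γδ− the 8 lower members became 5 with TMM scaling, 1 per thymocyte barcode, 3 among cycling-low barcodes and 0 per barcode set on the B cells of the library (2 settings chosen after seeing the data: the total or the same gene per B cell), and 1 member, Tap1, was then 2-fold higher on the total. From WT DN3b γδ− to WT DN4 γδ− the 1 lower member became 5 at 1.5-fold (1 higher), 0 among cycling-low barcodes (2 higher) and 4 and 2 in the B cell settings. From WT DN3a to WT DN3b γδ+ the 4 lower members became 1 with TMM, 1 among cycling-low barcodes, 1 with the B cell ratio taken out, 0 per barcode and 0 in both B cell settings (2 higher in the second). From WT DN3b γδ+ to WT DN4 γδ+ the 4 higher members became 8 at 1.5-fold, 2 with TMM, per barcode and with the B cell ratio taken out, 1 among cycling-low barcodes, and 1 and 0 in the B cell settings. For WT DN3b γδ+ over γδ− the 3 higher became 6 at 1.5-fold and 0 in both B cell settings. For WT DN4 γδ+ over γδ− the 8 higher became 0 among cycling-low barcodes, 5 per barcode (1 lower), and 4 and 2 in the B cell settings (1 and 2 lower). The 5 members higher in Lat-KO DN3 γδ− than in WT DN3a became 2 with the B cell ratio taken out (H2-Q7 and, on sparse B cell UMIs, Nlrc5), and between the Lat-KO libraries, where none was called, 1 member was lower in DN3 γδint under 5 settings: B2m at 1.5-fold, with TMM and without ribosomal and mitochondrial genes in the total, and Nlrc5 with the B cell ratio taken out and per barcode over the same gene per B cell, both on 3 and 7 B cell UMIs. With B cells of at least 20 UMIs, 1 member was 2-fold above them in WT DN4 γδ− and 4 were 2-fold below in WT DN4 γδ+, against 0 and 2. At 2000 UMIs per barcode H2-K1 was seen in 52.2%, 29.7%, 19.9%, 44.1%, 55.5%, 83% and 83.5% of barcodes, in the order of libraries used above. Of log2 ratios at least 2-fold in size, the sign turned in 25 values. In WT DN3b γδ− over WT DN3a these were H2-K1 per barcode (0.02), H2-K1 (0.54), H2-D1 (0.47), H2-Q7 (0.40), Tap2 (0.31) and Tapbp (0.32) on the total of the B cells, and H2-K1 (0.82), H2-D1 (0.60), H2-Q7 (0.55), H2-T23 (0.67), B2m (0.65), Tap2 (0.17), Tapbp (0.02) and Nlrc5 (0.78) on the same gene. In WT DN3b γδ+ over WT DN3a they were B2m (0.22), Tapbp (0.25) and Nlrc5 (0.59), in WT DN4 γδ+ over WT DN3b γδ+ B2m (-0.08 and -0.28) and Tapbp (-0.57), in WT DN4 γδ+ over γδ− H2-T23 (-0.26), Tap1 (-0.18 and -1.02) and Tapbp (-0.21), and in WT DN4 γδ− over WT DN3b γδ− H2-Q7 among cycling-low barcodes (1.83). Ratios under 2-fold turned as well, among them H2-K1 (0.93), H2-D1 (0.67) and the other members but H2-T23 in that last setting. Few UMIs stood behind Tap1, Tap2, Tapbp and Nlrc5 there. Others were Tap1 in WT DN3b γδ− over WT DN3a with TMM (0.01) and per barcode (0.87), and H2-T23 in WT DN3b γδ+ over WT DN3a among cycling-low barcodes (0.59). Per barcode H2-K1 turned in WT DN3b γδ+ over WT DN3a (0.51) and in WT DN4 γδ+ over WT DN3b γδ+ (-0.16). The other 178 counts stayed within 1.5 times. The sparse B cell UMIs of Nlrc5 and Tap2 limit the settings that divide by them.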
